A study of Acipenser ruthenus with 35 samples.

Results

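The 150 transcripts described here were the ones most concentrated at the vegetal end of both big and small oocytes of the sterlet, Acipenser ruthenus. Each oocyte had been cut along its animal-vegetal axis into 5 sections, A (extreme animal), B (animal), C (central), D (vegetal) and E (extreme vegetal), and 1 library was made from each section. For every oocyte with all 5 sections (big oocytes 1, 2 and 3 and small oocytes 5, 6 and 8), the share of a section was its percent of the scaled counts summed over the 5 sections. A transcript qualified when this sum averaged at least 200, when E held the largest mean share, when that share reached 30% and when A held under 15%, all in both stages. Of 49027 transcripts, 13894 reached the minimum sum in both stages. Leaving out the transcript of dnd1, which served as an orientation marker, 234 of these (1.68%) met every condition. The 150 with the highest value of their smaller E share were kept. The dnd1 transcript, with 31.9% in E of small oocytes, lay below the lowest of these values, 34.9%. The smaller share was that of small oocytes for 96 of the 150 and that of big oocytes for 54. Section shares therefore chose these transcripts, and they are given below as a description without a test.

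In the oocytes of many animals, RNAs anchored at the vegetal pole are inherited by the cells that form there and can direct the formation of germ cells and of the germ layers. In the frog Xenopus, one route carries germ plasm RNAs such as dazl to the vegetal cortex with the mitochondrial cloud, or Balbiani body, early in oogenesis, and a later route carries RNAs such as Vg1 along microtubules. Sterlet embryos, like those of frogs, cleave completely, so that cells at the vegetal end of the egg take up its cytoplasm. The identifiers in the files are those of a transcriptome assembly and are not paired there with gene names, and 0 of the 49027 matched the RefSeq table of 80041 genes. Names of the orientation markers were taken with their identifiers from the primers that the study lists, and the ortholog annotation mentioned in its methods was not used here. Known vegetal or germ plasm genes could not be counted for that reason, the roles of the 150 transcripts are not given, and defining markers of oocytes or of follicle cells were not checked. Of the 150, 111 came from the part of the assembly made without a genome (DN in the name) and 39, or 26%, from the part guided by a genome (GG), against 22.2% guided by a genome among the 13894 transcripts over the minimum sum.

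Big oocytes were advanced vitellogenic and measured 1920 to 2100 µm, and small oocytes were early vitellogenic and measured 1320 to 1500 µm. All were untreated and came from biopsies of mature females. The labels place all big oocytes in 1 female and all small oocytes in another, and according to the methods more RNA went into each library of the big stage, so that stage, female and input cannot be told apart, and p-values between stages measure only the spread between oocytes of 1 female each. Big oocytes gave 17 libraries (oocytes 1, 2 and 3, and sections A and B of oocyte 11), and small oocytes gave 18 (oocytes 5, 6 and 8, and sections C, D and E of oocyte 7). Depth ranged between 1816470 and 11348306 counts per library for big oocytes and between 1653598 and 6817459 for small ones. Orientation followed the labels: the animal marker exd2 had 92.6% ± 2.43 of its scaled counts in A of big oocytes and 90.5% ± 1.68 in A of small oocytes (SD, n = 3 each). The vegetal marker dnd1, which in zebrafish and frogs encodes an RNA-binding protein of germ cells, had 53.1% ± 4.14 in E of big oocytes and 31.9% ± 1.27 in E of small oocytes (SD, n = 3 each). Samples had been selected by marker gradients before sequencing, so these gradients are no independent check.

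The vegetal transcripts formed a graded profile, in which E held the most, D less, and A and B little. In big oocytes the median shares over the 150 were 2.58% in A, 4.22% in B, 13.7% in C, 28.5% in D and 49.7% in E. In small oocytes they were 8.14% in A, 8.30% in B, 13.8% in C, 22.8% in D and 45.9% in E. All 13894 transcripts over the minimum sum had medians between 19.1% and 20.1% in every section of both stages. The scaling sets the typical transcript near even across sections, so these medians follow from it. The E share was 35.0% to 86.9% in big oocytes, against 34.9% to 84.9% in small ones. The spread was wide, as 104 transcripts had at least 40% in E in both stages, 45 at least 50%, 16 at least 60% and 5 at least 70%.

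**Figure D1:**
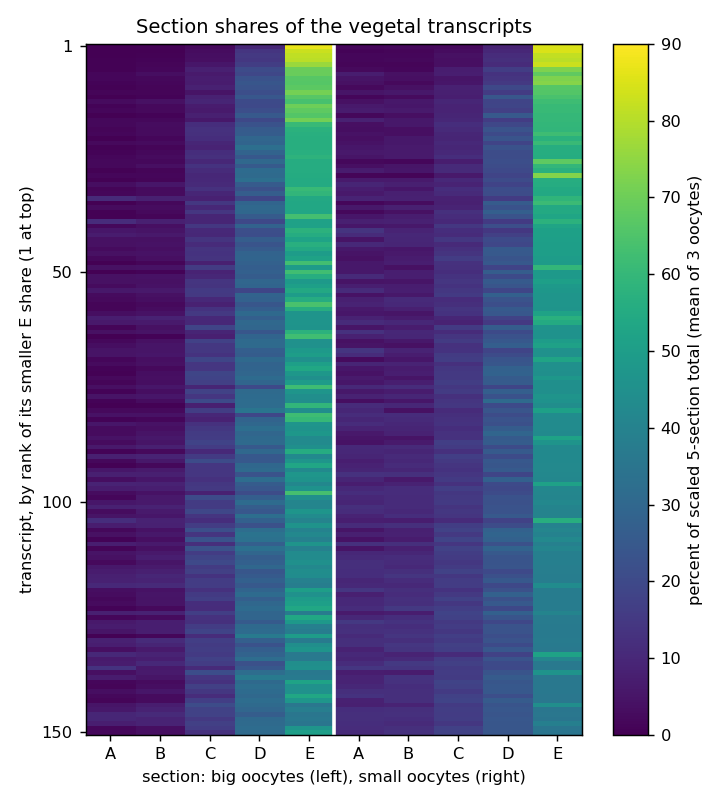
Percent of the scaled 5-section total found in each section, mean of 3 oocytes, with 1 row for each of the 150 transcripts in order of the smaller of its E shares and with sections A to E of big oocytes left of those of small oocytes. Color rises with the share (0% to 90%), the columns of E are brightest by construction, and A and B are darker in big oocytes (median A share 2.58%) than in small oocytes (8.14%).

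E was the largest section of nearly all 150 in each oocyte, and the order of the other sections was looser. E was the largest section for 150, 146 and 150 of the transcripts in big oocytes 1, 2 and 3, and for 150, 148 and 149 in small oocytes 5, 6 and 8. The median E share was 51.2%, 47.7% and 49.5% in these big oocytes, against 50.2%, 41.7% and 47.0% in the small ones. Small oocyte 6 was the lowest in E and, with a median of 9.66%, the highest in A. The median A share was 2.96%, 2.34% and 2.53% in big oocytes 1, 2 and 3, against 6.86%, 9.66% and 7.20% in small oocytes 5, 6 and 8, so that the stages did not overlap. The median D share was 28.3%, 28.5% and 27.3% in big oocytes, against 22.1%, 22.4% and 22.6% in small oocytes, also without overlap. Toward the animal end the profile was flatter in small oocytes: the median ratio of C to B was 3.51, 2.66 and 4.59 in big oocytes 1, 2 and 3, against 1.56, 1.54 and 1.52 in small oocytes 5, 6 and 8. A rise at every step between A and E was found for 87, 138 and 108 transcripts in the big and for 84, 87 and 76 in the small oocytes. The step between A and B was the least regular: B was above A for 87, 142 and 111 of the 150 in big oocytes 1, 2 and 3, against 56%, 54.6% and 58.7% of the transcripts over the minimum sum. In small oocytes 5, 6 and 8 it was above for 92, 102 and 83, against 51.9%, 49.2% and 50.7%, so that big oocyte 1 and small oocyte 8 were near transcripts in general. Big oocyte 2 stood apart in B, where its median share was 5.84%, against 3.15% and 3.41% in big oocytes 1 and 3.

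**Figure D2:**
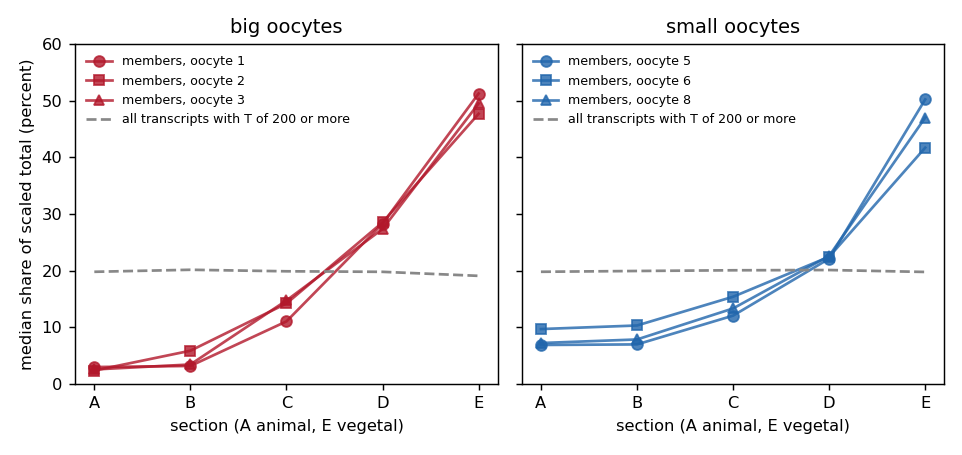
Median share (percent of the scaled 5-section total) of the 150 transcripts in sections A to E, 1 line for each oocyte, with big oocytes in the left panel and small oocytes in the right, and the median over the 13894 transcripts over the minimum sum as a dashed line. All 6 oocytes climb to between 41.7% and 51.2% in E, and the small oocytes start higher in A (6.86% to 9.66%) than the big ones (2.34% to 2.96%).

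With E as the peak in both stages by the rule, the shares of the other sections differed between stages. The B share of every big oocyte was below that of every small oocyte for 83 transcripts and above it for 0, against 17.3% and 14.5% of the 13894 transcripts over the minimum sum. The D share was above in every big oocyte for 96 and below for 0, against 13.5% and 16.9%. Its stage mean was higher in big oocytes for 146, a count not made over the other transcripts. The rule bound the B and D shares too, since E had to be the largest and the shares of an oocyte are parts of a whole. All counts of shares given here are therefore a description only, and transcripts not chosen by the rule are no equal reference. The A share lay below without overlap for 110 and above for 1, beside 23% and 22.1%, and the E share above for 38 and below for 9, beside 19.6% and 23.7%. D and E together held a median of 78.5% in big and 69.6% in small oocytes, and A and B together 6.87% in big and 17.0% in small oocytes. In these sums each section weighs the same whatever its RNA content, so a share is not a share of the RNA of the oocyte.

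TRINITY_DN54217_c2_g1_i3_1 was the most vegetal by the rule, with a mean of 86.9% in E of big and 84.9% in E of small oocytes. Its E share was 89.7%, 81.8% and 89.2% in big oocytes 1, 2 and 3, against 85.0%, 80.0% and 89.9% in small oocytes 5, 6 and 8. The values of both stages interleaved, with oocytes 2 and 6 the lowest of their stages. In section A it had 4, 5, 6 and 0 unscaled counts in big oocytes 1, 2, 3 and 11, against 7, 4 and 2 in small oocytes 5, 6 and 8, so that a difference in A was not detectable at this depth (edgeR quasi-likelihood test, Benjamini-Hochberg adjusted p = 0.58). TRINITY_DN54716_c0_g1_i2_1 and TRINITY_DN54716_c0_g2_i1_1, which come from 1 component of the assembly, followed with 82.8% and 81.2% in E of big oocytes and 84.7% and 81.7% in E of small oocytes. Transcripts of 1 component can share sequence, and the counting program divides shared reads by estimate, so their values are not independent.

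By the number after DN or GG in the identifier, the 150 fell into 144 groups, 6 of which held 2 transcripts each. The pairs of GG_76841 and GG_6335 differed in the next part of the identifier, marked c. TRINITY_DN54272_c0_g1_i1_1 and TRINITY_DN54272_c0_g2_i1_1 were a pair that shared this part, with 49.7% and 48.4% in E of big oocytes and 50.3% and 50.8% in E of small oocytes. A further 5 transcripts over the minimum sum carried the same gene-level identifier as 1 of the 150 but did not meet the conditions. Their E share ranged between 17.3% and 53.4% in big oocytes (median 33.0%) and between 18.6% and 27.6% in small oocytes (median 20.7%), and E was the largest section in both stages for 2 of them. The limit of the list lay in a continuous range of values. Just inside it, TRINITY_DN54662_c2_g1_i5_1 and TRINITY_DN55209_c0_g1_i3_1 had a smaller E share of 34.96% and 34.93%, and just outside it TRINITY_GG_75301_c0_g1_i1_1 and TRINITY_DN43553_c1_g1_i3_1 had 34.93% and 34.88%.

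A pair of oocytes with incomplete sections had no part in the choice. In small oocyte 7, E was the highest of sections C, D and E for 150 of 150 transcripts, against 37.6% of all 33209 transcripts tested and 35.8% of those over the minimum sum. D was above C for 148, against 48.7% and 45.6%. The median log2 ratio of E to D was 1.35 in oocyte 7 (0.23 to 3.85 over the 150), above the 1.14, 0.92 and 1.07 of small oocytes 5, 6 and 8. E took a median of 61.9% of the counts of C, D and E together in oocyte 7, compared with 57.6%, 51.9% and 57.2% in small oocytes 5, 6 and 8. In big oocyte 11, B was above A for 117 of the 150, against 50.6% of all transcripts tested and 52.5% of those over the minimum sum. This contrast depended on the scaling. With library totals in place of the deposited size factors it was 126, against 62.4% and 70%, and with TMM scaling 121, against 54.8% and 58.2%. With the deposited size factors, the median log2 ratio of B to A in oocyte 11, 0.64, lay between those of big oocytes 1, 2 and 3 (0.08, 1.19 and 0.38). Each of these is 1 oocyte of the same female as the others of its stage, and no test was made.

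**Figure D3:**
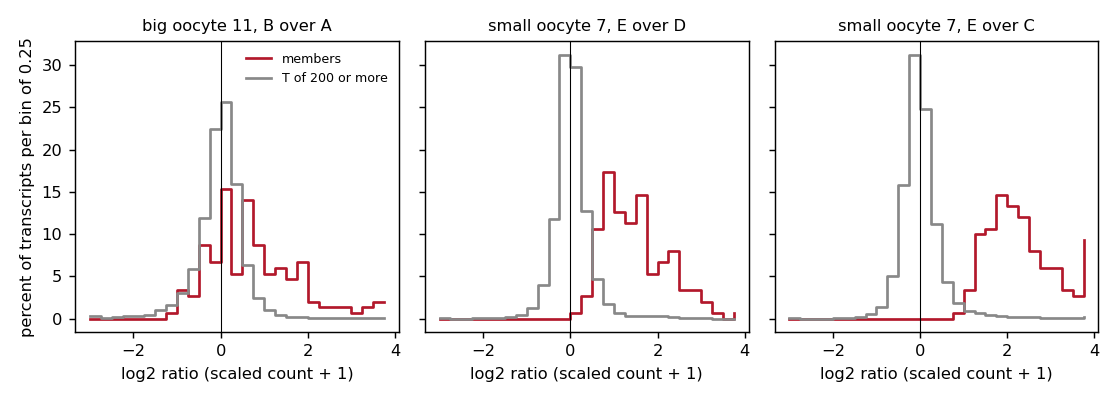
Distribution of log2 ratios between sections (scaled count + 1, bins of 0.25 on the log2 scale, ratios beyond the axis placed in the end bins) for the 150 transcripts and for all transcripts over the minimum sum, in big oocyte 11 (B over A) and small oocyte 7 (E over D, and E over C). All 150 lie above 0 in both panels of oocyte 7, with medians of 1.35 and 2.18, and the distribution in oocyte 11 is wider with a median of 0.64.

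The choice depended little on any 1 complete oocyte. When the rule was applied without big oocyte 1, 2 or 3, 146, 148 and 147 of the 150 chosen transcripts stayed the same, and without small oocyte 5, 6 or 8, 137, 138 and 142. In the oocyte left out, which then had no part in the choice, E was the largest section for 150, 145 and 148 of the chosen transcripts in big oocytes 1, 2 and 3, and for 150, 148 and 149 in small oocytes 5, 6 and 8. Among transcripts over the minimum sum, E was the largest for 25.9%, 29.8% and 24.2% in these big oocytes and for 21.3%, 15.6% and 23.3% in the small ones. The median E share of the chosen transcripts in the oocyte left out was 51.4%, 47.7% and 49.9% in the big oocytes, and 49.8%, 41.7% and 47.0% in the small ones.

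The rule named no direction between the stages, so the amounts in big and small oocytes were compared by test. The total per oocyte is the sum of its scaled counts over the 5 sections, on 1 scale for all libraries, and measures a transcript relative to the other RNA of the same sections rather than its absolute amount. The rule had applied its minimum sum on the separate scale of each stage, so on the joint scale the limits differed. Transcripts over the minimum had mean totals there of at least 174 scaled counts in big and 231 in small oocytes. Most vegetal transcripts rose in big oocytes: 121 of 150 were higher and 4 were lower at an adjusted p under 0.1, and 25 did not pass (edgeR quasi-likelihood test, Benjamini-Hochberg adjusted over all 33209 transcripts tested, 3 oocytes each). Of all transcripts tested, 28.8% were called higher and 28.7% lower, and of those over the minimum sum 32.2% and 31.7%. The median log2 difference of the 150 was 0.82, a fold of 1.76, with quartiles of 0.50 and 1.11, beside a median of 0.00 over all transcripts tested. That last median follows from the scaling, which centers the typical transcript. Past a fold of 1.5, 97 were higher, against 13% of all transcripts tested and 5.48% of those over the minimum sum, and 2 were lower, against 14.1% and 6.48%. Every big oocyte was above every small oocyte for 109 of the 150, against 32.3% of all transcripts tested and 37.3% of those over the minimum sum, and below for 3, against 27.2% and 29.1%. With sums of unscaled section counts in place of scaled ones, 78 were called higher, against 25.2% of all transcripts tested and 26.8% of those over the minimum sum, and 3 lower, against 25.8% and 29.1%. Without big oocyte 1, or without big oocyte 3, 2 in place of 4 were called lower, with no shares over all transcripts given for these fits.

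Summed over the 150, the vegetal transcripts made up 1.01%, 1.45% and 1.26% of the scaled total of big oocytes 1, 2 and 3, against 0.783%, 0.583% and 0.659% in small oocytes 5, 6 and 8. Their median scaled total was 851, 1222 and 1065 in the big oocytes, against 656, 462 and 522 in the small ones. Every big oocyte was above every small one in both measures. The mean total of single transcripts among the 150 lay between 197 and 25888 scaled counts in big oocytes (median 1033) and between 243 and 13285 in small oocytes (median 561). All transcripts over the minimum sum had medians of 798 in big and 772 in small oocytes and reached 252337 and 298534.

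Among transcripts whose stages did not overlap, the largest rises in the total belonged to 2 with steep vegetal profiles. TRINITY_DN51407_c3_g1_i1_1 had totals of 1014, 1881 and 1480 scaled counts in big oocytes 1, 2 and 3, against 496, 284 and 356 in small oocytes 5, 6 and 8. It was higher by 1.91 ± 0.34 on the log2 scale (SE, edgeR adjusted p = 0.00962). TRINITY_DN49977_c0_g1_i2_1 had 1724, 2906 and 2361 in big oocytes, against 720, 454 and 679 in small oocytes, a log2 difference of 1.88 ± 0.29 (SE, edgeR adjusted p = 0.00602). These held 66.5% and 67.2% in E of big oocytes and 64.3% and 66.3% in E of small oocytes. The largest falls belonged to TRINITY_GG_15837_c1_g1_i3_1, with 169, 218 and 204 in big oocytes, against 457, 314 and 426 in small oocytes, and to TRINITY_DN48438_c1_g1_i2_1, with 350, 430 and 350 in big oocytes, against 653, 442 and 694 in small oocytes. Their log2 differences were -1.05 ± 0.15 and -0.70 ± 0.18 (SE, edgeR adjusted p = 0.000254 and 0.017). The stages lay close for TRINITY_DN48438_c1_g1_i2_1, whose lowest small oocyte, number 6, was just above its highest big oocyte, number 2.

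The 2 most abundant of the 150 rose as well. TRINITY_DN55209_c0_g1_i3_1 had totals of 20220, 31407 and 26036 scaled counts in big oocytes 1, 2 and 3, against 14336, 12512 and 13008 in small oocytes 5, 6 and 8 (log2 difference 0.93 ± 0.18, SE, edgeR adjusted p = 0.0119). TRINITY_GG_65371_c1_g1_i2_1 had 8472, 12032 and 10792 in big oocytes, against 5947, 4469 and 5040 in small oocytes (log2 difference 0.99 ± 0.18, SE, edgeR adjusted p = 0.00869). The 3 most vegetal transcripts were higher in every big oocyte too. TRINITY_DN54217_c2_g1_i3_1 had 839, 1318 and 927 in big oocytes, against 464, 240 and 412 in small oocytes (log2 difference 1.43 ± 0.32, SE, edgeR adjusted p = 0.0186), and the pair of component DN54716, TRINITY_DN54716_c0_g1_i2_1 and TRINITY_DN54716_c0_g2_i1_1, rose by 1.30 ± 0.29 and 1.44 ± 0.33 (SE, edgeR adjusted p = 0.0199 and 0.024).

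Tested section by section over all 35 libraries, transcripts called higher in big oocytes outnumbered those called lower in C, D and E, and the reverse held in A and B. In E, 96 of 150 were called higher, against 24.7% of all transcripts tested and 28.1% of those over the minimum sum, and 6 lower, against 21% and 28.2%. In D, 127 were called higher, against 24.1% and 29.1% of the same 2 sets, and 0 lower, against 21.1% and 26.1%. At an unadjusted p under 0.05 by the same edgeR test, the only tool run for D, 129 were higher and 0 lower. Of the 13894 transcripts over the minimum sum, 4102 were higher and 3675 lower in D at that limit. In C, 74 were called higher, against 17.2% and 22.9%, and 3 lower, against 18.3% and 23%. In B, 8 were called higher, against 14.9% and 21.2%, and 26 lower, against 18.3% and 20.9%, so that the count of falls in B was near that of transcripts in general, and 82 of the 150 had a positive difference there. In A, 7 were called higher, against 16.8% and 23.6%, and 53 lower, against 18.5% and 22.1%. In fits of 1 section alone, 3 were called lower in E, against 20.4% and 28.3%, and 14 higher in A, against 15.3% and 21.1%. The median log2 difference over the 150 was -0.67 in A, 0.07 in B, 0.70 in C, 1.02 in D and 0.76 in E, beside medians between -0.01 and 0.02 over all transcripts tested. Those of all transcripts follow from the scaling here too. The rule bound the A and E shares of both stages in most of these libraries. Transcripts not chosen by it are therefore no equal reference for counts by section, here or below.

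**Figure D4:**
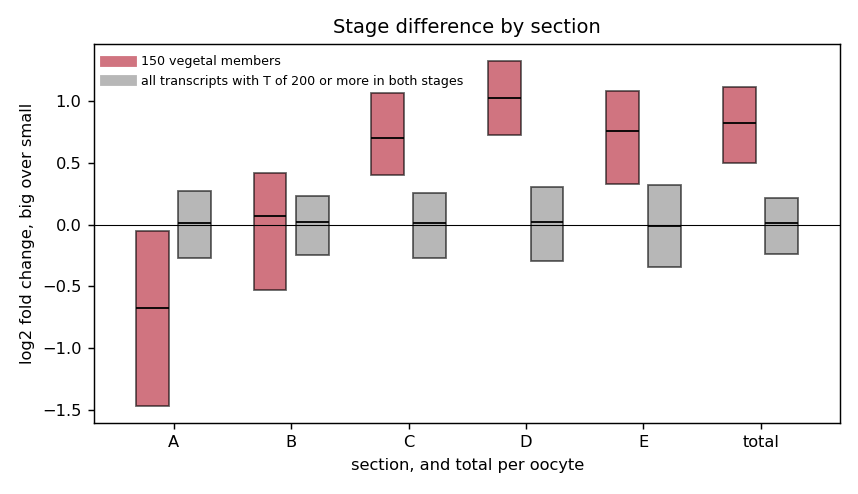
Log2 fold change of big over small oocytes in each section and in the total per oocyte, for the 150 vegetal transcripts and for all transcripts over the minimum sum. Boxes span the quartiles and lines mark the median. The box of the 150 lies below 0 in A (median -0.67), includes 0 in B (0.07) and lies above 0 in C, D, E and the total (0.70, 1.02, 0.76 and 0.82), and the boxes of all transcripts are centered near 0.

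The rise at the vegetal end and the fall at the animal end were not calls on the same transcripts in all cases. Of the 150, 37 were called lower in A and higher in E, against 6.17% of the transcripts over the minimum sum, and 57 were called higher in E with no call in A, against 14.5%. A further 12 were called lower in A with no call in E, against 7.05%, and 31 had no call in either, against 27.2%. Another 4 were called lower in both sections, against 8.87%, and 2 higher in both, against 7.43%. Of the 127 called higher in D, 94 were also called higher in E and 33 had no call there, where 21.6% and 7.34% of the transcripts over the minimum sum had these calls. Of the 121 with a higher total, 93 were called higher in E and 28 had no call there, where 21.7% and 10.1% of the same transcripts did. These comparisons share counts with each other, and whether the stage difference of a transcript differed between A and E was not tested as such. Counts in A were low (medians of 50, 22.5 and 55 unscaled counts over the 150 in big oocytes 1, 2 and 3, and of 40, 27.5 and 22 in small oocytes 5, 6 and 8), which limits what a test in A can detect.

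In E the largest rises were clear of overlap. TRINITY_DN54112_c1_g1_i3_1 had 2484, 2625 and 2383 scaled counts in E of big oocytes 1, 2 and 3, against 733, 471, 627 and 681 in E of small oocytes 5, 6, 7 and 8, a log2 difference of 1.99 ± 0.22 (SE, edgeR adjusted p = 6.2e-08). TRINITY_DN53885_c0_g1_i2_1 had 5566, 7049 and 6405 in E of big oocytes, against 2122, 1315, 2438 and 1921 in E of small oocytes, a log2 difference of 1.71 ± 0.30 (SE, edgeR adjusted p = 5.95e-05). Unlike in these, E of TRINITY_DN54217_c2_g1_i3_1 overlapped between stages, with 753, 1078 and 827 in big oocytes, against 395, 192, 812 and 370 in small oocytes, where oocyte 7 reached the level of big oocytes (log2 difference 1.07 ± 0.33, SE, edgeR adjusted p = 0.0123). That call was lost with DESeq2 (adjusted p = 0.112) and in an edgeR fit of the E libraries alone (adjusted p = 0.155).

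TRINITY_GG_15837_c1_g1_i3_1 was the only transcript whose E level fell past the threshold with no overlap between complete oocytes. It had 77.8, 99.6 and 97.4 scaled counts in E of big oocytes 1, 2 and 3, against 265, 137, 311 and 271 in E of small oocytes 5, 6, 7 and 8 (log2 difference -1.39 ± 0.21, SE, edgeR adjusted p = 7.62e-07). In A it had 13.7, 8.85, 13.1 and 16.1 in big oocytes 1, 2, 3 and 11, against 42.3, 53.5 and 30.8 in small oocytes 5, 6 and 8 (log2 difference -1.72 ± 0.31, SE, edgeR adjusted p = 4.16e-05). In D the stages overlapped, with 48.8, 67.8 and 64.3 in big oocytes, against 69.3, 49.6, 91.7 and 59.0 in small oocytes (edgeR adjusted p = 0.657). In B and C the transcript was lower in big oocytes as well (log2 differences -1.37 ± 0.28 and -0.96 ± 0.30, SE, edgeR adjusted p = 0.000266 and 0.0133). The fall was thus called in every section but D, and the E share was 46.5% in big and 55.0% in small oocytes.

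The largest falls in A came close to the limit of detection in big oocytes. TRINITY_DN47331_c0_g1_i1_1 had 3, 2, 4 and 0 unscaled counts in A of big oocytes 1, 2, 3 and 11, against 42, 17 and 16 in A of small oocytes 5, 6 and 8, a log2 difference of -4.39 ± 0.81 after scaling (SE, edgeR adjusted p = 0.000163). In E the same transcript had 589, 728 and 644 scaled counts in big oocytes, against 209, 154, 291 and 200 in small oocytes, and was higher by 1.66 ± 0.29 (SE, edgeR adjusted p = 3.9e-05). Its profile was thus steeper at both ends in big oocytes, with 62.3% in E and 0.175% in A, against 45.7% in E and 8.12% in A of small oocytes. TRINITY_GG_76841_c1_g1_i1_1 had 1, 3, 7 and 1 unscaled counts in A of big oocytes, against 53, 18 and 17 in A of small oocytes (log2 difference -4.21 ± 0.97, SE, edgeR adjusted p = 0.00156). With so few counts in big oocytes, the size of both differences depends on single counts.

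A few transcripts went the other way in A. TRINITY_DN54647_c0_g1_i1_1 had 138, 96.1, 112 and 132 scaled counts in A of big oocytes 1, 2, 3 and 11, against 49.9, 36.2 and 52.5 in A of small oocytes 5, 6 and 8 (log2 difference 1.36 ± 0.33, SE, edgeR adjusted p = 0.00258). In E it had 468, 607 and 540 in big oocytes, with 463, 229, 757 and 349 in small oocytes, where both stages overlapped (edgeR adjusted p = 0.272). It had more in A than in B of every big oocyte, and its lowest level there lay in B or C. TRINITY_DN43453_c0_g1_i1_1 had 246, 158, 232 and 242 in A of big oocytes, against 93.3, 112 and 116 in A of small oocytes (log2 difference 1.06 ± 0.32, SE, edgeR adjusted p = 0.0144), and without small oocyte 5 this call was lost (adjusted p = 0.111). The 7 of 150 called higher in A stood beside 16.8% of all transcripts tested and 23.6% of those over the minimum sum. Without oocyte 1, 3, 5 or 8, this number was 4, 3, 1 and 4. No shares over all transcripts are given for these fits.

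**Figure D5:**
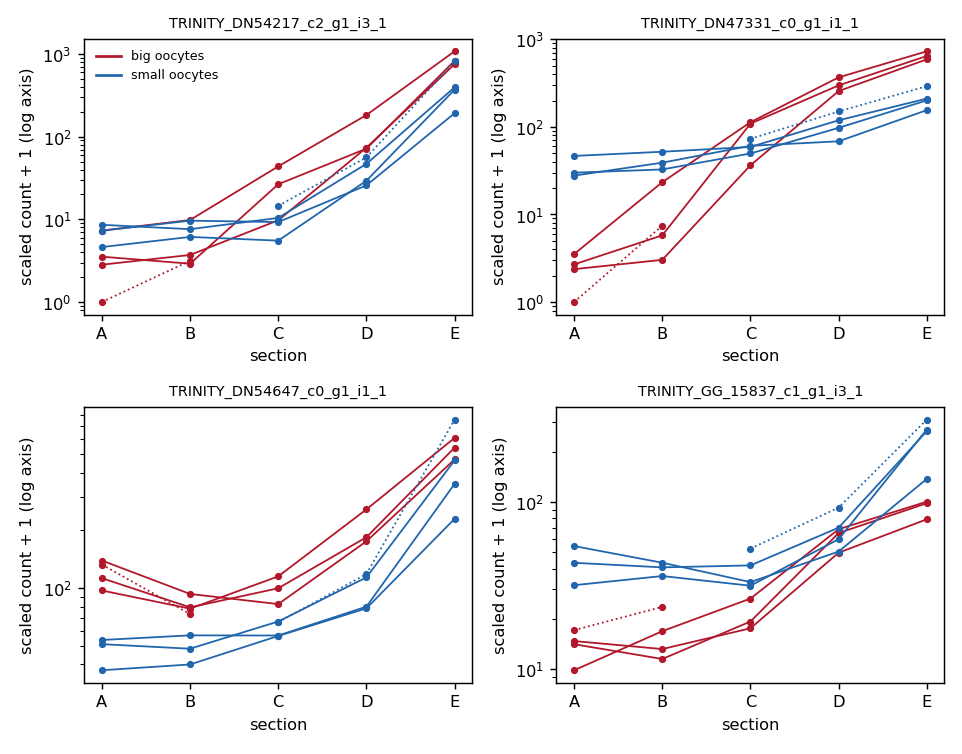
Scaled counts + 1 (log axis) in sections A to E of single oocytes for 4 of the 150 transcripts, big oocytes in red and small oocytes in blue, with the incomplete oocytes 11 and 7 dotted. TRINITY_DN54217_c2_g1_i3_1 is steep in both stages, TRINITY_DN47331_c0_g1_i1_1 is lower in A and higher in E of big oocytes, TRINITY_DN54647_c0_g1_i1_1 is higher in A of big oocytes, and TRINITY_GG_15837_c1_g1_i3_1 is lower in A, B, C and E of big oocytes.

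As a share of all counts in a library, without any scaling between libraries, the 150 were lowest in A and highest in E of both stages. The 150 were chosen by the shares of the complete oocytes, so a low A and a high E there follow from the rule. In big oocytes they made up 0.182% ± 0.0127 in A (SD, n = 4), 0.276% ± 0.0962 in B (n = 4), 0.842% ± 0.244 in C (n = 3), 1.66% ± 0.309 in D (n = 3) and 2.92% ± 0.328 in E (n = 3). In small oocytes they made up 0.268% ± 0.00685 in A (SD, n = 3), 0.303% ± 0.0115 in B (n = 3), 0.483% ± 0.0551 in C (n = 4), 0.818% ± 0.153 in D (n = 4) and 1.84% ± 0.624 in E (n = 4). The stages did not overlap in A, where every big oocyte was lower, or in C and D, where every big oocyte was higher. In E the ranges met, between 2.55% and 3.19% in big oocytes and between 1.20% and 2.65% in small oocytes, whose highest value was that of oocyte 7. Among libraries without a part in the choice, those of big oocyte 11 held 0.169% in A and 0.260% in B. Those of small oocyte 7 held 0.559% in C, 1.01% in D and 2.65% in E.

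The same conditions mirrored at the animal end (A the largest share, at least 30%, and E under 15% in both stages, leaving out the markers exd2 and slc44a3) found 106 transcripts. Of these, 2 had a higher and 80 a lower total in big oocytes (median log2 difference -0.52), beside the 121 and 4 of the 150 vegetal transcripts. The shares so called were 28.8% and 28.7% of all transcripts tested, and 32.2% and 31.7% of those over the minimum sum. In E, 2 of the 106 were called higher, against 24.7% and 28.1% of the same 2 sets, and 79 lower, against 21% and 28.2%. In A, 13 of the 106 were called higher, against 16.8% and 23.6%, and 42 lower, against 18.5% and 22.1%. The difference between these lists was not tested. Totals are relative to the other RNA of the oocyte, so the rise of one group and the fall of the other rest on the same scaling and give no absolute amounts.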

How the data were processed

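After trimming (Trimmomatic) and removal of ribosomal and mitochondrial sequence, the authors pseudoaligned the reads to a sterlet transcriptome by kallisto 0.43.1. The deposited tables hold estimated counts per transcript and, for each stage separately, a normalized signal, the counts over a DESeq2 size factor, which gave the shares. Signal times size factor matched the count for 100% of values (tolerance 1e-06). For comparisons between stages, counts of all 35 libraries were scaled together by median of ratios. Transcripts with a scaled total over 20 per oocyte were tested with edgeR 4.0.16 (quasi-likelihood, robust, R 4.3.3), by stage for rounded totals of 6 oocytes and by section in a model of 10 groups over all libraries. The threshold was a Benjamini-Hochberg adjusted p of 0.1, that of the study. Each SE of a log2 difference was calculated back from the edgeR test, as the absolute difference over the square root of its F statistic. It is therefore approximate, above all at low counts. Tested on simulated data with 50 transcripts per fold, the fit of totals called 50 of 50 at a 2-fold rise and 16 of 33009 unchanged ones, and that of section E called 29 of 50 and 14 of 33009. At a 2-fold fall, the fit of totals called 50 of 50 and that of section E 16 of 50. Simulated libraries were independent, with a fixed spread, no gradient between sections and no differences between oocytes. These counts therefore check the fits only and do not give the power or the rate of false calls for the real data. Alternatives used TMM, library totals, DESeq2 1.42.0, limma 3.58.1, other filters and 1 oocyte fewer. Transcripts were named by rank, abundance, shared component or the largest changes without overlap between complete oocytes. Members, lists and tests were chosen with earlier results of these data known. Tables of totals per oocyte were not used here. Counts cover sampling of reads only, since molecular identifiers are not mentioned in the sources used here.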

Additional observations from a re-analysis of the deposited data

Results flagged for a closer look

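In 100 sets of 4 libraries of 1 stage and section, which covered each of the 18 named transcripts, the library total and the percent of counts from the 150, 8 held a sample far from the others by Dixon's criterion, where chance gives about 1 in 20. In section A of big oocytes, oocyte 2 stood apart for TRINITY_GG_65371_c1_g1_i2_1, where it was high with 206.1 scaled counts, and for TRINITY_DN43453_c0_g1_i1_1, where it was low with 158.0. In section B of big oocytes, oocyte 2 was high for TRINITY_DN54217_c2_g1_i3_1 (8.82 scaled counts), TRINITY_GG_76841_c1_g1_i1_1 (41.2) and TRINITY_DN54272_c0_g1_i1_1 (257.5). In section C of small oocytes, oocyte 7 was high for TRINITY_GG_65371_c1_g1_i2_1 (1226 scaled counts) and TRINITY_DN54272_c0_g1_i1_1 (482.6). In section E of small oocytes, oocyte 6 was low for TRINITY_DN48438_c1_g1_i2_1 (142.9 scaled counts). The part of any technical difference in these values was not tested.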

How the results depend on the processing

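Of the 150 transcripts, 70 were chosen again with a minimum sum of 500. That number follows from the new minimum alone, since only transcripts under it in a stage dropped out. Between 137 and 148 were chosen again without 1 complete oocyte. The number with a higher total in big oocytes was 78 with unscaled sums, and between 103 and 134 without 1 oocyte, and the number with a lower total between 2 and 4. In section E, between 70 (without oocyte 6) and 116 (without oocyte 7) were called higher and between 4 and 6 lower, and 3 were called lower in a fit of the E libraries alone. In section A, 4 were called higher with no filter on low counts, 14 in a fit of the A libraries alone, 4 in limma voom with the oocyte as a replicate block, and between 1 and 8 without 1 oocyte, and between 38 and 62 were called lower. Sections of an oocyte are parts of 1 cell, and this block (correlation 0.0647) gave 117 higher and 6 lower in E and 46 lower in A. Apart from unscaled sums and fits of 1 section, shares over all transcripts are not given for these alternatives. Their counts therefore do not separate the 150 from transcripts in general. Totals allow no block, since each oocyte belongs to 1 stage. No named value changed its sign. Of the values of named transcripts under the alternatives, 727 kept their side of the threshold, 16 passed it newly and 13 no longer passed it. The cause was not tested in any of these cases. Totals do not include oocytes 7 and 11, although libraries of both took part in the scaling. No fit of totals without them was run. With 3 oocytes a stage from 1 female each, differences between females cannot be told apart from those between stages, and low counts in section A limit what is detectable there.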
